A study of Mus musculus with 18 samples.

Results

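The TRIM (tripartite motif) family of ubiquitin ligases was followed in gp38+ stromal cells of mouse salivary glands over 6 time groups. Members were taken by symbol alone: every gene named Trim followed by a number and at most 1 letter, which found 68 of the 55401 gene identifiers in the count files, all of them protein coding. Of these, 55 are described because they reached 2 CPM or more (a gene's counts as its share of the library's scaled total) in at least 3 of the 18 libraries, and 29 reached that level in all 18. The other 13 stayed under the limit, with no library above 4 CPM and no group mean above 2.3 CPM. Trim15, Trim38, Trim40, Trim54, Trim58 and Trim60 lay just outside with 2 libraries at 2 CPM, and Trim10, Trim55 and Trim61 just inside with 3. In all, 65 of the 68 members were among the 27525 genes tested, while Trim43a, Trim43c and Trim52 had too few counts.

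The cells were sorted from the glands of wild-type Balb/c mice aged 8 to 12 weeks, and 1 mouse gave each library. The control group, hour 0, was uninfected (replicates 10 to 12). In the other 5 groups replication-defective adenovirus 5 had been given through the cannulated submandibular duct, at 100000000 to 1000000000 plaque-forming units, and cells were taken at hour 3 (replicates 4 to 6), day 1 (replicates 13 to 15), day 2 (replicates 16 to 18), day 8 (replicates 1 to 3) or day 23 (replicates 7 to 9). The procedure is used to bring about ectopic lymphoid structures in the gland. Cannulation and virus cannot be told apart, since no group with the procedure alone was analysed here, and gp38 (podoplanin) is carried by fibroblasts and also by lymphatic endothelium.

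Most TRIM proteins, though not all members here, have a RING domain, which carries ubiquitin ligase activity, followed by B-box and coiled-coil domains. They differ in the domain at their end. Many with a PRY-SPRY domain at the end act in innate immunity, where they tag viral sensors, adaptors or viral capsids with ubiquitin, and some are themselves induced by interferon. Others work in chromatin (the TIF1 group), on microtubules (the COS-box group), in neurons and development (the NHL group) or in muscle.

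Library totals ran from 4398234 to 15234431 counts. All 9 fibroblast markers, Pdgfra and Col1a1 among them, were at 2 CPM or more in every group. Together they summed to 24495 to 28940 CPM at hour 0, 43076 to 43951 at hour 3 and 11069 to 15064 at day 1, and the group mean of Pdgfra went from 1922 at hour 0 to 182 at day 1. The part of this in the members' values was not tested. Libraries of hour 0, day 1 and day 2 stood apart from those of hour 3, day 8 and day 23 in counts on 1458 sensory receptor genes, a class with no known use in stroma: the 95th percentile of these genes was 0.437, 0.206 and 0.602 CPM per kb of exon in the first set and 0.01, 0.00827 and 0 in the second, in that order. This division and the time cannot be told apart when hour 3, day 8 or day 23 is set against hour 0. Secretory gene products of the gland summed to between 31335 and 71423 CPM at hour 0, 72718 and 118242 at hour 3, 2421 and 3302 at day 1, and 249 and 1128 at day 2. In bulk RNA fewer cells of a type and less RNA per cell cannot be told apart.

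Against hour 0, 17 members rose and 5 fell at day 1, where 9.67% of all genes tested were higher and 12.8% lower (edgeR quasi-likelihood test, Benjamini-Hochberg adjusted p under 0.05). All 17 that rose kept their call under every alternative of scaling, filter, tool and sample choice. In each the 3 libraries of day 1 lay above the 3 of hour 0. Such a gap follows closely from the call, is no separate support, and was not counted over all genes. They were Trim3, Trim6, Trim8, Trim11, Trim12a, Trim12c, Trim21, Trim24, Trim25, Trim26, Trim30a, Trim30c, Trim30d, Trim34a, Trim46, Trim47 and Trim56. Of the 5 that fell, Trim2 and Trim29 kept the call throughout, and the count was 3 without replicate 11, 12 or 15 and 2 without replicate 13. The median log2 fold change was 0.13 over the members and -0.41 over all genes.

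At day 2, 13 members rose and 5 fell, against 5.12% and 9.63% of all genes. Of the 12 described members that rose, 8 kept the call in every alternative, namely Trim12a, Trim21, Trim25, Trim26, Trim30a, Trim30c, Trim30d and Trim34a. Here too Trim2 and Trim29 were the falls that kept their call, and the count of 5 became 3 without replicate 11, 12 or 17 and 2 without replicate 16. Scaling to library totals alone, in place of the TMM method that discounts a few very abundant genes, gave 18 rises and 2 falls at day 2, against 9.29% and 4.64% of all genes, and 18 rises and 3 falls at day 1, against 10.9% and 11.1%.

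Hour 3 brought 13 rises and 32 falls, against 16.9% and 43.1% of all genes, so the members' shares, 20% and 49.2%, lay near those of all genes, 60.0% of which were called in either direction. With library totals alone these became 4 rises and 49 falls, against 5.41% and 70.8% of all genes, and the median of all genes moved from -1.41 to -2.54 on the log2 scale. The 4 rises held in every alternative: Trim25, Trim30a, Trim30d and Trim56. Trim44 changed its call with the scaling, since its log2 fold change was 0.81 by TMM and -0.37 by library totals (adjusted p = 0.042). Of the 32 members that fell, 10 were no higher at hour 0 than the 95th percentile of the sensory receptor genes.

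At day 8, 12 members rose and 19 fell, against 11.2% and 32.7% of all genes (43.9% in either direction), and at day 23, 10 rose and 18 fell, against 8.51% and 25.4%. Library totals alone left 1 rise and 28 falls at day 8, against 4.97% and 43.2% of all genes, and 0 rises and 31 falls at day 23, against 2.55% and 39.7%. The 12 rises at day 8 became 6 without replicate 2 or 10 and 7 without replicate 3, and Trim24 alone kept its rise in every alternative. At day 23 none of the 10 rises held throughout, with 5 left without replicate 9 and 6 without replicate 10, and the 18 falls became 11 without replicate 9 or 11. Among the falls, 8 of 19 at day 8 and 9 of 18 at day 23 were members no higher at hour 0 than the receptor genes' 95th percentile.

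Over all 6 groups 61 of the 65 members tested changed, 51 of them described, against 83.9% of all genes (edgeR F test). Trim13, Trim36, Trim69 and Trim72 were the members without a call. By TMM, 15 of the 55 described members had their highest group mean at day 1 and 16 at day 2, and 29 had their lowest at hour 3. The same was not counted over all genes. Of these 43.1% fell at hour 3 against hour 0, with a median log2 fold change of -1.41. Summed over the family, levels averaged 1254 ± 30.5 CPM in uninfected glands (SD, n = 3) and 2464 ± 109 at hour 3. They were 2377 ± 47.5 and 1648 ± 30.7 CPM on days 1 and 2, and 1521 ± 26.1 and 1318 ± 37.9 on days 8 and 23. By library totals the same sums were 1498, 1304, 3038, 2527, 1380 and 1161 CPM, so the rank of hour 3 rests on the scaling. Levels and orders of libraries below are by TMM unless library totals are named.

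**Figure D1:**
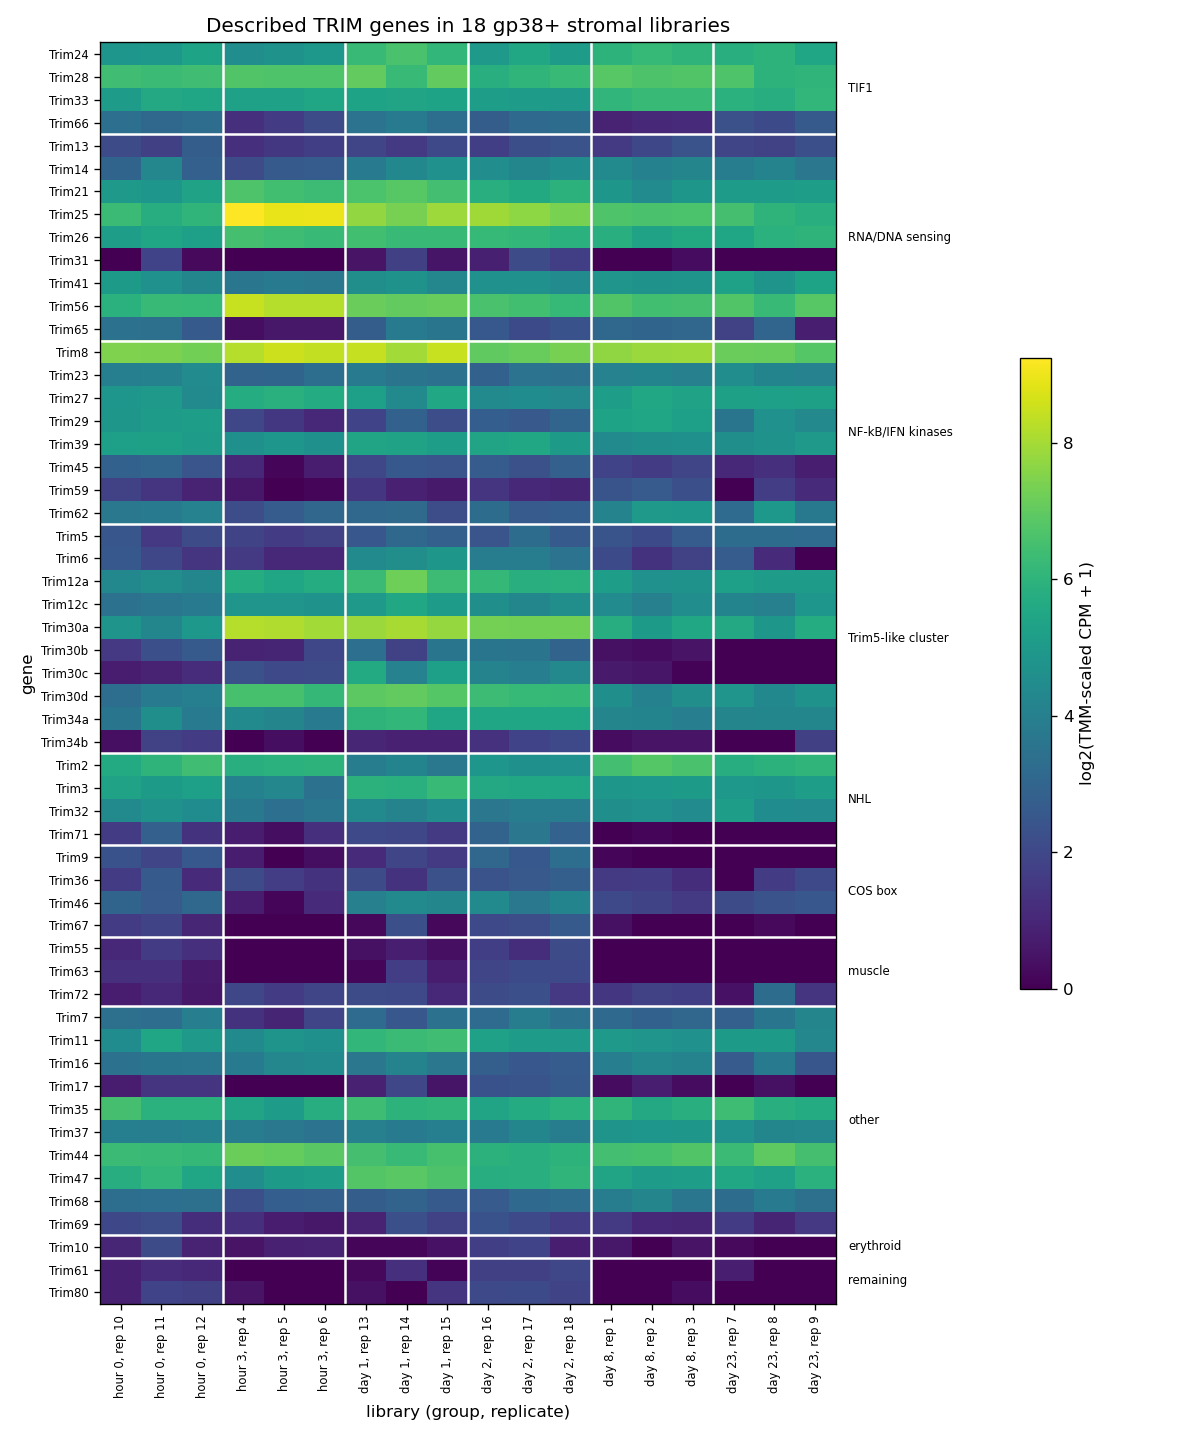
Level of the 55 described members (rows, by role) in the 18 libraries (columns, by group), as log2 of TMM-scaled CPM plus 1. On this scale Trim25, Trim30a and Trim56 are brightest at hour 3, whereas by library totals Trim30a had its highest mean at day 1 (303 CPM), Trim25 at day 2 (314) and Trim56 at day 1 (171). Of the 10 members of the Trim5-like cluster 7 are called higher at day 1 and day 2 than at hour 0. Trim5 and Trim30b have higher means there too, without a call by TMM, though both are called at day 2 with library totals. Several low members are dark at hour 3, day 8 and day 23.

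Sensors of viral nucleic acid and their regulators held 10 members. Of these, 4 rose and 4 fell at hour 3 (2 and 5 with library totals), and 4 rose and none fell at day 1 and again at day 2. Of all genes 16.9% rose and 43.1% fell at hour 3 (5.41% and 70.8% with library totals), 9.67% and 12.8% at day 1, and 5.12% and 9.63% at day 2, so the 4 falls at hour 3 lay near that background. Trim25, Trim56, Trim21 and Trim26 rose at both hour 3 and day 1, though at hour 3 Trim21 and Trim26 were not called with library totals.

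Trim25, which attaches ubiquitin chains to the RNA sensor RIG-I (ENSMUSG00000000275, chromosome 11, 88999376 to 89020293), counted 78.9, 53.8 and 65.5 CPM at hour 0, 607, 494 and 500 at hour 3, and 215, 161 and 234 at day 1. Later libraries held 241, 206 and 167 CPM at day 2, 103, 96.4 and 97.5 at day 8, and 90.8, 64.2 and 54.0 at day 23. By TMM every library of hour 3 lay above all others, those of day 1 and day 2 overlapped each other above day 8, and day 23 overlapped hour 0. By library totals hour 3 held 313, 270 and 263 CPM and overlapped day 1 (271, 212 and 294) and day 2 (364, 322 and 254). Against hour 0 its log2 fold change was 3.01 ± 0.207 (SE) at hour 3 (adjusted p = 1.14e-12), 1.62 ± 0.198 at day 1 (1.76e-07), 1.63 ± 0.198 at day 2 (3.23e-07) and 0.58 ± 0.194 at day 8 (0.0196). The rise at hour 3 was 1.83 with library totals, and against day 23, which shares the low receptor counts of hour 3, it was 2.94 ± 0.208 (2.78e-12). The call at day 8 was lost with library totals (0.18, adjusted p = 0.473) and without replicate 1, 2 or 11 (adjusted p = 0.0549, 0.103 and 0.0985).

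Trim56, a ligase known for acting on the STING pathway (ENSMUSG00000043279, chromosome 5, 137105644 to 137116209), counted 59.3, 76.2 and 72.6 CPM at hour 0, 355, 296 and 299 at hour 3, and 138, 129 and 136 at day 1. It held 95.8, 87.2 and 72.6 CPM at day 2, 106, 86.1 and 91.4 at day 8, and 105, 75.2 and 115 at day 23. By TMM hour 3 and then day 1 stood above every other group, and day 2 and day 23 overlapped hour 0. The log2 fold change against hour 0 was 2.19 ± 0.179 at hour 3 (adjusted p = 4.15e-11) and 0.95 ± 0.173 at day 1 (9.68e-05), and the fall from hour 3 to day 1 was itself called (-1.24 ± 0.173, 1.01e-06). That order rests on the scaling, since by library totals the libraries held 158 to 183 CPM at hour 3 and 169 to 174 at day 1, with means of 167 and 171. Rises of 0.45 at day 8 and 0.50 at day 23 (adjusted p = 0.0371 and 0.0295) were lost with library totals (0.835 and 0.783), and also without replicate 1 (0.144) or replicate 9 (0.131) respectively. The day 2 value of 0.30 was not called by TMM (0.32). It was called with library totals (0.67, adjusted p = 0.0196), DESeq2 (0.51, 0.0199) and the filter of 5 CPM in 3 libraries (0.47, 0.0376).

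Trim21 is a cytosolic antibody receptor that sends antibody-coated virus, adenovirus included, to the proteasome (ENSMUSG00000030966, chromosome 7, 102557921 to 102565486). It counted 29.9, 28.1 and 38.7 CPM at hour 0, 103, 86.7 and 80.4 at hour 3, 99.2, 113 and 89.4 at day 1, and 55.7, 47.8 and 59.9 at day 2. Day 8 gave 28.6, 21.1 and 28.5 CPM and day 23 gave 32.8, 32.6 and 35.0. By TMM hour 3 and day 1 overlapped each other above day 2, which lay above hour 0, and the later groups overlapped hour 0. By library totals hour 3, at 42.4 to 53.4 CPM, lay below day 2 (75.0 to 90.9) and day 1 (112 to 149). On that scale day 8 (18.5 to 28.5 CPM) and day 23 (25.7 to 32.3) lay below hour 0 (34.7 to 44.1). The day 8 value was -0.31 by TMM and not called (adjusted p = 0.168). It was called with library totals (-0.70, 0.00507), DESeq2 (-0.44, 0.0452) and the filter of 5 CPM in 3 libraries (-0.48, 0.0344). Its log2 fold change was 1.48 ± 0.183 at hour 3 (adjusted p = 1.21e-07), 1.64 ± 0.183 at day 1 (3.37e-08) and 0.76 ± 0.181 at day 2 (0.00327). With library totals the hour 3 value was 0.31 and not called (adjusted p = 0.132), while the rise over day 23 kept its call under either scaling (1.43 by TMM and 0.70 by totals).

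Trim26, a regulator of the IRF3 branch of interferon induction, counted 34.8 to 42.1 CPM at hour 0, 74.0 to 90.5 at hour 3, 73.6 to 86.3 at day 1 and 59.3 to 71.7 at day 2, with no overlap between hour 0 and these groups. Its rise of 1.04 ± 0.181 at day 1 (adjusted p = 5.11e-05) held under library totals (1.14), and its rise of 1.12 at hour 3 did not (-0.06, adjusted p = 0.791). Trim14, which works with the mitochondrial adaptor MAVS, fell at hour 3 (-1.16, adjusted p = 0.00691) and rose at day 2 (1.00, adjusted p = 0.0351). The first call was lost without replicate 11 (0.198) and the second without replicate 10, 12, 16 or 18 (0.103 to 0.214). Its exons share 31.3% of their bases with Nans on the opposite strand, whose reads cannot be told apart without strand. Trim65, a ligase of the RNA sensor MDA5, fell at hour 3 from 5.13 to 9.96 CPM to 0.261 to 0.527 (-4.21 ± 0.62, adjusted p = 2.41e-06). In the TMM fit of all 18 libraries it was not called at day 1, 2, 8 or 23. A fall at day 23 was called with library totals (-1.68, 0.00892), DESeq2 size factors (-1.30, 0.0418) and DESeq2 (-1.33, 0.0477). It was also called without replicate 8 or 12 (0.00628 and 0.0397). Fitting only the groups compared called a fall at day 2 (-1.11, 0.0445). Trim41 fell at hour 3, from 18.0 to 31.7 CPM at hour 0 to 11.5 to 13.4 (adjusted p = 0.000732). Trim13 had no call at any time in the TMM fit of all 18 libraries. Its fall at hour 3 was called with library totals (-2.19, adjusted p = 0.00115) and with DESeq2 (-1.13, 0.0401).

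**Figure D2:**
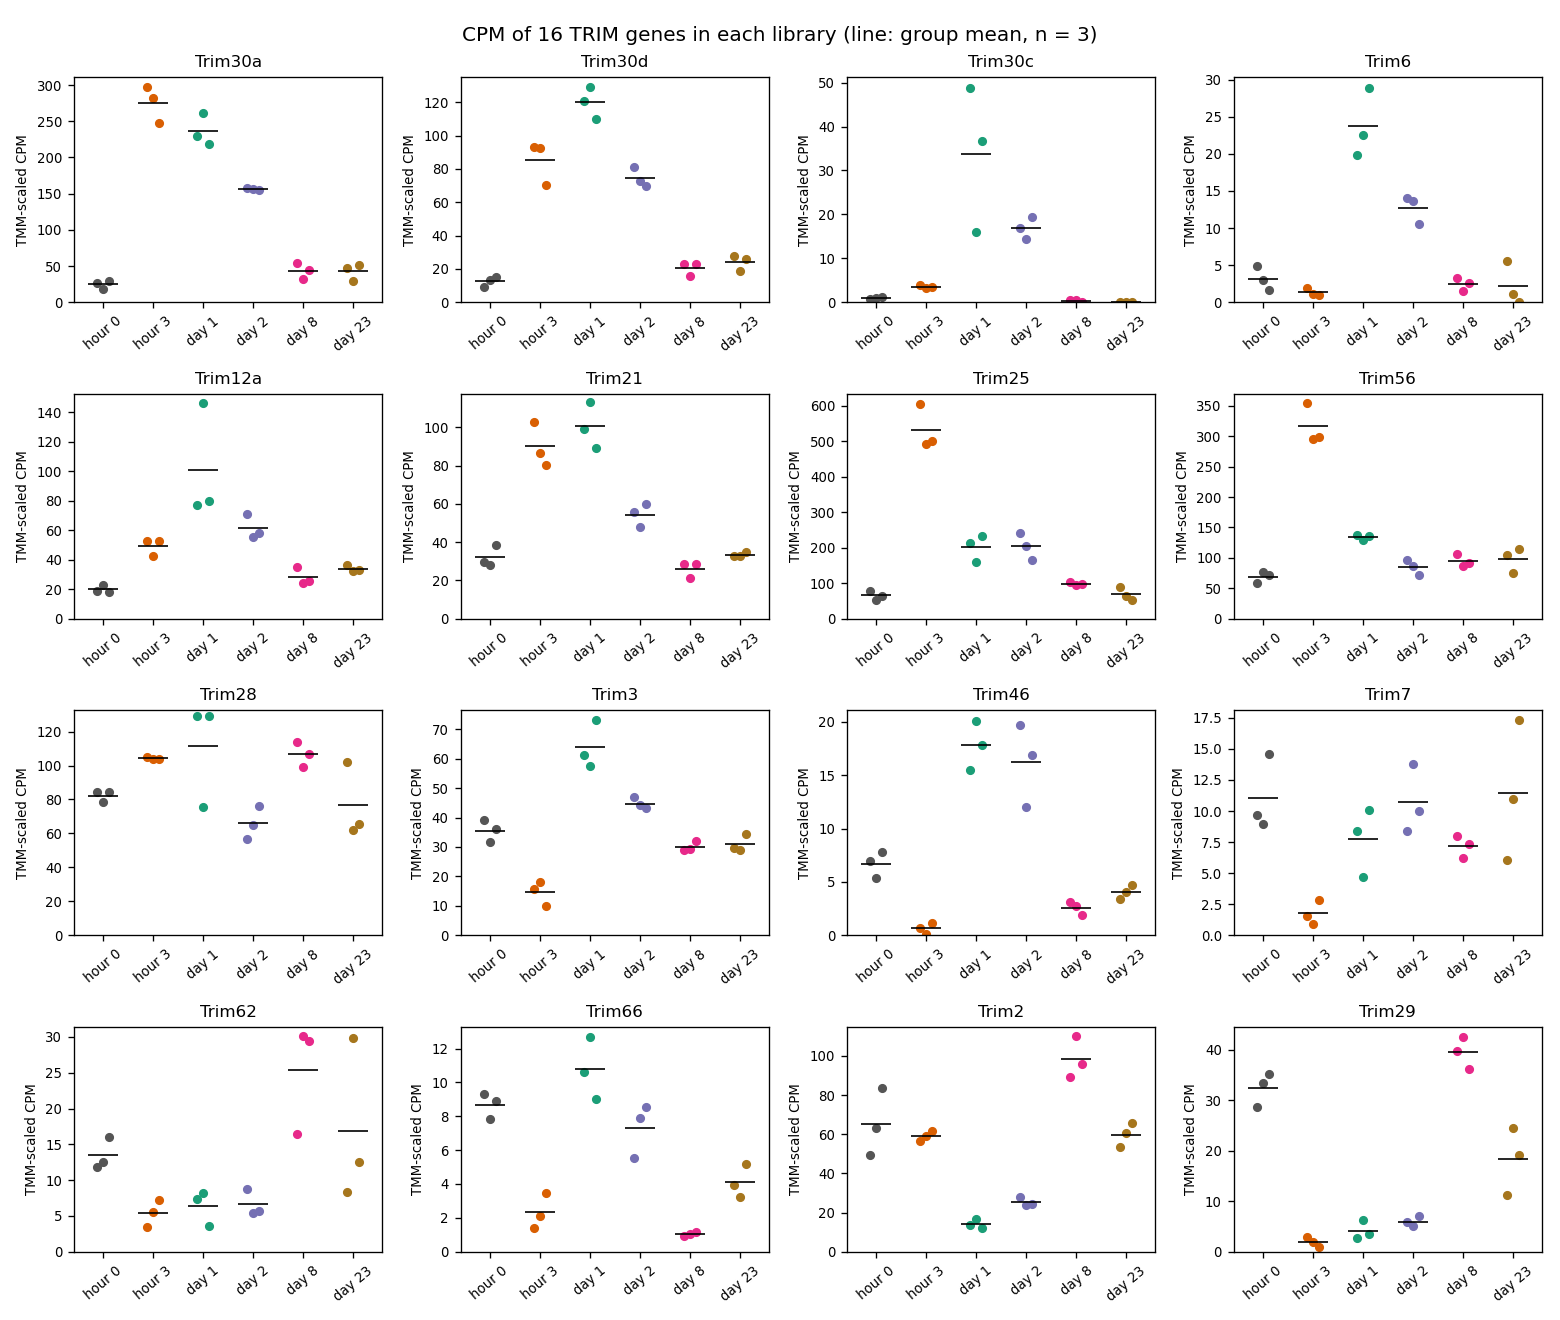
TMM-scaled CPM of 16 members in each library (points) with the group mean (line, n = 3), 1 panel a gene, each with its own linear axis from 0. Trim30a and Trim25 stand highest at hour 3 on this scale but not by library totals (means of 146 CPM at hour 3 and 303 at day 1 for Trim30a, and 282 at hour 3 and 314 at day 2 for Trim25), Trim30c and Trim6 at day 1, and Trim2 and Trim29 are low at day 1 and day 2 and back at the level of hour 0 or above at day 8.

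The relatives of Trim5, whose human counterpart restricts retroviral capsids, form an array on chromosome 7, from 104218793 to 104507849 (mm10, 289 kb). The array holds 10 members and no other protein-coding gene: Trim6, Trim34a, Trim5, Trim12a, Trim34b, Trim12c, Trim30b, Trim30c, Trim30a and Trim30d in genomic order. At day 1, 7 of the 10 rose and none fell, where 9.67% of all genes rose, with a median log2 fold change of 2.11, and at day 2 the same 7 rose, where 5.12% of all genes did, with a median of 1.52. Trim5, Trim34b and Trim30b had no call at either time in the TMM fit of all 18 libraries. With library totals 9 of the 10 rose at day 2, where 9.29% of all genes did. Trim5 and Trim30b were then called (1.25 and 1.77, adjusted p = 0.0444 and 0.023), as they were with DESeq2 (0.0329 and 0.0335). Without replicate 14 Trim30b was called at day 1 (1.51, 0.0408). At hour 3, 5 rose (Trim12a, Trim12c, Trim30c, Trim30a and Trim30d) and Trim34b fell, against 16.9% and 43.1% of all genes, and with library totals 2 rose and 5 fell, against 5.41% and 70.8%. Across all genes tested the median log2 fold change was -0.41 at day 1 and 0.29 at day 2. Members of the array are near-identical copies in part, and how reads that fit several copies were counted is not given in the sources used here, so the split between copies is uncertain.

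**Figure D3:**
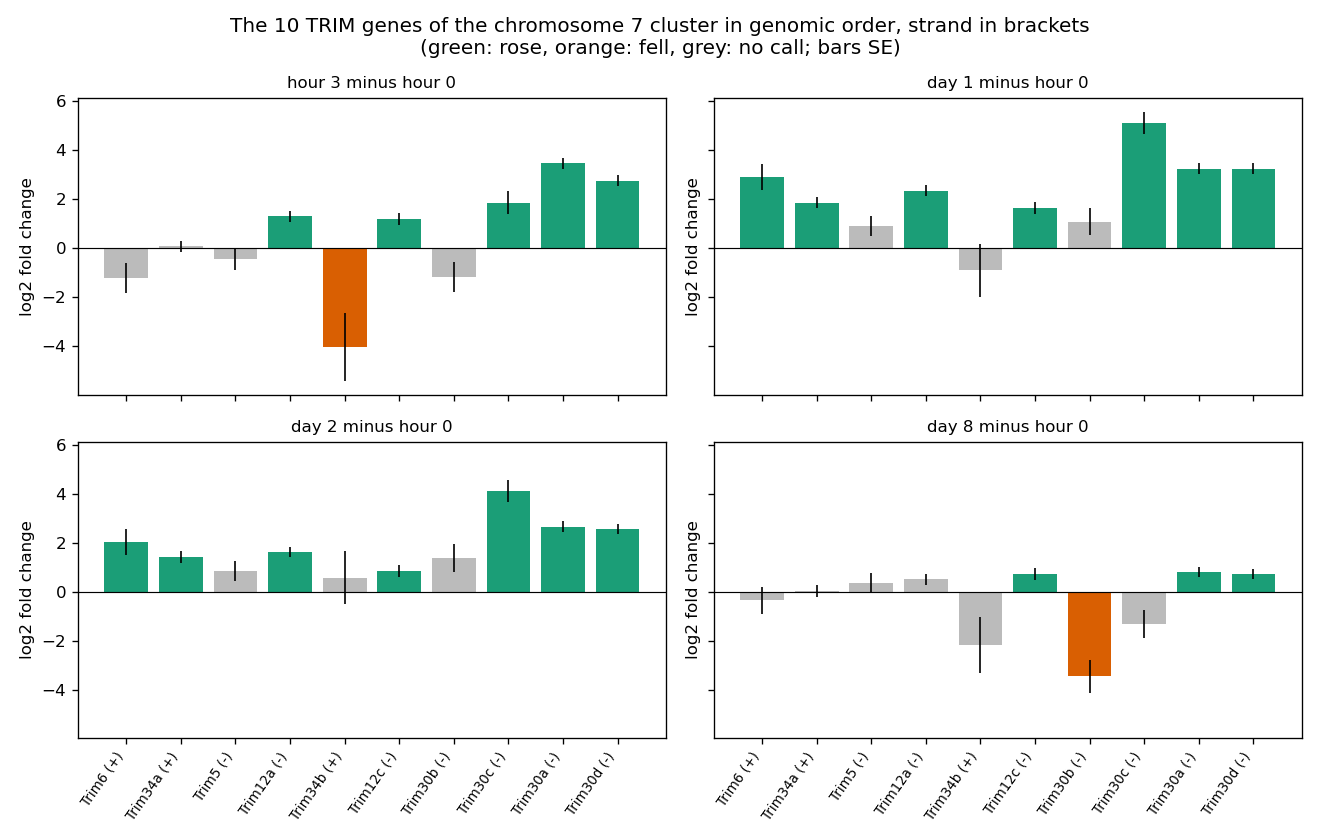
Log2 fold change against hour 0 (bars, with SE) of the 10 members of the chromosome 7 array in genomic order, at hour 3, day 1, day 2 and day 8. At day 1 and day 2 the same 7 genes are called higher by TMM, with Trim30c highest. At day 8 Trim12c, Trim30a and Trim30d are called higher, though not with library totals, and Trim30b lower.

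Promoters of the array are shown because 7 of its 10 members rose at day 1. The windows are RefSeq's (GRCm38.p6, 250 bases before to 50 after the start of a transcript), which gave an entry for 53 of the 68 members. Those of the 4 members with the largest rise at day 1 follow as the 250 bases before the start, with capitals marking the core of the interferon-stimulated response element, GAAA, any 2 bases and GAAA again, read on either strand. Trim30c (minus strand, chr7:104400779-104401028), Trim30d (minus strand, chr7:104507850-104508099), Trim30a (minus strand, chr7:104465194-104465443) and Trim6 (plus strand, chr7:104218545-104218794) read, in gene orientation:
Trim30c: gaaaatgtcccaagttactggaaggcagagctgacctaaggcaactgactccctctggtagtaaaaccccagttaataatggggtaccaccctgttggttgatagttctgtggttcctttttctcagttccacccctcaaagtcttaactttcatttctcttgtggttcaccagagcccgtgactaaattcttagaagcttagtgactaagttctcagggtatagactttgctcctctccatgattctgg
Trim30d: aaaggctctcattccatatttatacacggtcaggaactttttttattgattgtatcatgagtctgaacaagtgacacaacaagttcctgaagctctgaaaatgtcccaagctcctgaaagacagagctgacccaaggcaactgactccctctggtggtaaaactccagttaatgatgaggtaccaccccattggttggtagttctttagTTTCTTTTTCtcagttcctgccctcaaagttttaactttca
Trim30a: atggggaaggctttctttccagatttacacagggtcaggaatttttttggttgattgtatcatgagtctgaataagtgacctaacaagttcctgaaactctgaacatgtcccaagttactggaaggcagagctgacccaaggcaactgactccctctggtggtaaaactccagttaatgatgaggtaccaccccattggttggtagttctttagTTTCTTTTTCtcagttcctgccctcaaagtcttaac
Trim6: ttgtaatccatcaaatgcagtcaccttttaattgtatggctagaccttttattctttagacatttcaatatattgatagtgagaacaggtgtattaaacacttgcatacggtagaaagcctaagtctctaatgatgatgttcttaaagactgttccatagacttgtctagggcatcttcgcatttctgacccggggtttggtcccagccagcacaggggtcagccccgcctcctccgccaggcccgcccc

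The match begins 41 bases before the start in Trim30d and 36 before it in Trim30a, and these windows are 93.6% identical over 295 bases compared without gaps. No match lies in the windows of Trim30c and Trim6, which says only that these letters are not there. In Trim12a, Trim34a and Trim21, picked after their values were seen, the match lies just after the start, shown as 30 bases around it (chr7:104315466-104315495 on the minus strand, chr7:104244457-104244486 on the plus strand and chr7:102565447-102565476 on the minus strand):
Trim12a: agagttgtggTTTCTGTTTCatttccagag
Trim34a: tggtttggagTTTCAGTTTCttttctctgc
Trim21: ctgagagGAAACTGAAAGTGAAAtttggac

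In Trim21 a pair of matches overlap. Counting both strands and overlapping matches, this core occurred in 3.44% of 32851 RefSeq windows and in those of 9 members: Trim2, Trim5, Trim12a, Trim12c, Trim21, Trim26, Trim30a, Trim30d and Trim34a. It was in the windows of 7 of the 14 described members that rose at day 1 and have an entry, and of 2 of the 29 other described members, Trim2 and Trim5. Among the 7, Trim12a, Trim12c, Trim30a, Trim30d and Trim34a belong to the array of related copies and are not separate instances. The share over all genes that rose at day 1 is not given here, and a link of the core to the rises was not tested. TTCNNNGAA, the gamma-activated site, occurred in 8.3% of all windows and in 6 of 53 members, and GGG, any 5 bases and CC, a loose NF-kB-like pattern, in 50.8% and in 28 of 53. A match is a description of letters, and a stretch could count for more than 1 pattern.

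Trim30a, an interferon-induced gene whose product is known to damp Toll-like receptor signals to NF-kB (ENSMUSG00000030921, chromosome 7, 104409025 to 104465193), counted 26.8, 17.8 and 29.8 CPM at hour 0, 297, 282 and 248 at hour 3, and 230, 262 and 218 at day 1. It held 158, 156 and 155 CPM at day 2, 53.7, 31.6 and 44.5 at day 8, and 47.4, 28.9 and 51.8 at day 23. The early groups stood far above hour 0, hour 3 and day 1 overlapped, and day 23 overlapped hour 0. By library totals hour 3, at 131 to 154 CPM, lay below day 1 (275 to 344) and day 2 (236 to 245). Log2 fold changes were 3.47 ± 0.227 at hour 3 (adjusted p = 4.04e-13), 3.25 ± 0.225 at day 1 (2.9e-12) and 2.66 ± 0.22 at day 2 (2.95e-10), followed by 0.80 ± 0.212 at day 8 (0.00511) and 0.77 ± 0.215 at day 23 (0.0106). Library totals gave 2.30 at hour 3 and ended the calls of day 8 and day 23 (0.42 and 0.35, adjusted p = 0.135 and 0.229), and the day 23 call was also lost without replicate 9 or 11 (0.0582 and 0.0626).

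Trim30d counted 9.19, 13.4 and 15.0 CPM at hour 0, 93.2, 92.3 and 70.5 at hour 3, 121, 129 and 110 at day 1, and 81.0, 72.6 and 69.8 at day 2. At day 8 it held 23.2, 15.7 and 22.9 CPM and at day 23 27.6, 18.8 and 25.8. Day 1 lay above every other group, and no group overlapped hour 0. Its log2 fold change was 2.77 ± 0.214 at hour 3 (adjusted p = 1.29e-11), 3.26 ± 0.216 at day 1 (1.36e-12) and 2.57 ± 0.212 at day 2 (2.76e-10), and the step from hour 3 to day 1 was 0.49 ± 0.195 (0.0412). Later values of 0.72 and 0.93 at day 8 and day 23 (0.00876 and 0.00271) were not called with library totals (0.227 and 0.0736).

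Trim30c had the largest rise of the family at day 1. It counted 0.677, 0.906 and 1.24 CPM at hour 0, 3.91, 3.16 and 3.47 at hour 3, 48.8, 16.0 and 36.6 at day 1, 16.8, 14.5 and 19.4 at day 2, 0.583, 0.487 and 0.0775 at day 8, and 0 in all libraries of day 23. Day 1 varied widely between mice and overlapped day 2, and both stood above all other groups. The log2 fold change was 5.13 ± 0.458 at day 1 (adjusted p = 1.07e-09), 4.14 ± 0.45 at day 2 (7.97e-08) and 1.87 ± 0.462 at hour 3 (0.00169), of which the last was lost with library totals (0.71, 0.15). At hour 0 its 30 counts put day 23 at least 6.81-fold lower, taking 3 counts in all as the floor for that group. Its 0.549 CPM per kb at hour 0 was near the receptor genes' 95th percentile there, 0.437, which was 0 at day 23.

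Trim6, which makes free ubiquitin chains that help to activate the kinase IKKε, counted 4.84, 2.95 and 1.65 CPM at hour 0, 1.96, 1.05 and 1.03 at hour 3, 19.8, 22.5 and 28.9 at day 1, and 14.0, 13.7 and 10.6 at day 2. Day 8 held 3.25, 1.54 and 2.56 CPM and day 23 5.53, 1.13 and 0. Day 1 and then day 2 stood above all other groups, and hour 3 overlapped hour 0. The log2 fold change was 2.92 ± 0.537 at day 1 (adjusted p = 0.000112) and 2.02 ± 0.531 at day 2 (0.00741), and from hour 3 to day 1 it was 4.13 ± 0.596 (1.74e-06). The hour 3 value was -1.21 ± 0.601 and not called (0.0809), but it was called with library totals (-2.39, adjusted p = 0.00097), where hour 3 lay below hour 0 without overlap, with no filter (-1.08, 0.0493) and without replicate 12 (-1.52, 0.0389). The day 2 call was lost without replicate 12 (1.69, adjusted p = 0.0531).

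Trim12a counted 18.8, 22.7 and 18.1 CPM at hour 0, 52.4, 42.8 and 52.5 at hour 3, 77.2, 146 and 79.8 at day 1, and 70.6, 55.6 and 57.9 at day 2. It held 35.2, 24.4 and 25.4 CPM at day 8 and 36.6, 32.5 and 32.7 at day 23. No group overlapped hour 0, and replicate 14 of day 1 was highest. Its log2 fold change was 1.31 ± 0.22 at hour 3 (adjusted p = 1.69e-05), 2.35 ± 0.224 at day 1 (1.84e-09), 1.63 ± 0.221 at day 2 (1.93e-06) and 0.77 ± 0.221 at day 23 (0.0118). Library totals left 0.13 at hour 3 (0.618), with libraries that overlapped hour 0, and 0.32 at day 23 (0.27).

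Among the other members of the array, Trim34a rose by 1.87 ± 0.24 at day 1 (adjusted p = 4.19e-07), from 11.2 to 23.6 CPM at hour 0 to 42.9 to 68.5, and by 1.42 at day 2. An opposite-strand gene covers 23.5% of its exon bases. Trim12c rose at hour 3 (1.19), day 1 (1.64), day 2 (0.86), day 8 (0.73) and day 23 (0.76), with adjusted p from 4.14e-06 to 0.0217. With library totals its values at hour 3, day 8 and day 23 were 0.02, 0.34 and 0.33 and not called (0.961, 0.273 and 0.303). The day 2 call was lost without replicate 10, 16 or 18 (0.0749, 0.0674 and 0.0542), that of day 8 without replicate 1, 3 or 10 (0.0633, 0.0755 and 0.0588), and that of day 23 without replicate 9, 10 or 11 (0.156, 0.066 and 0.0538). Trim5 held 1.93 to 4.55 CPM at hour 0 and 8.52 to 8.56 at day 23, a rise of 1.37 (adjusted p = 0.0158) that was not called with library totals (0.92, 0.0731). Trim30b, at 1.93 to 5.13 CPM at hour 0, had 0 counts at day 23, which puts it at least 26.1-fold lower. At hour 0 it held 0.478 CPM per kb, near the receptor genes' 95th percentile of 0.437, which was 0 at day 23. Time and the set with low receptor counts cannot be told apart in this fall.

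Summed markers of macrophages, monocytes and dendritic cells, which also express several of these genes, were 24.1 to 43.8 CPM at hour 0, 28.3 to 44.6 at hour 3, 15.9 to 22.4 at day 1, 46.9 to 47.4 at day 2 and 122 to 144 at day 8. None of the 10 genes of the list was at 0 at day 1. The part of these cells in the values of the array was not tested. Neutrophil markers summed to 3.10 to 9.52 CPM at hour 0, 36.1 to 47.5 at hour 3 and 4.11 to 10.9 at day 1, and T and NK cell markers to 7.93 to 13.0, 0.386 to 1.58 and 6.12 to 7.40. The part of neutrophils in the values of hour 3 was not tested.

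From day 1 to day 2, 16 members fell and 5 rose, against 11.2% and 12.0% of all genes. Falls included Trim30a (-0.60, adjusted p = 0.0353), Trim30d (-0.69, 0.0123), Trim12a (-0.72, 0.0159), Trim21 (-0.88, 0.000781) and Trim8 (-1.16, 1.45e-05). Only 6 of the 16 held in every alternative (Trim8, Trim11, Trim16, Trim21, Trim24 and Trim47), and library totals alone gave 6 falls and 6 rises, against 4.61% and 16.3% of all genes. Leaving out replicate 17 or 18 left 8 falls, and the 5 rises varied between 1 (without replicate 13, 17 or 18) and 9 (without replicate 14), with 2 without replicate 15 or 16.

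Between hour 3 and day 23, both low in receptor counts, 12 members were higher at hour 3 and 16 lower, against 14.3% and 15.7% of all genes. Library totals alone gave 9 higher and 23 lower, against 7.18% and 28.8%. Of the 12, 9 held in every alternative: Trim8, Trim21, Trim25, Trim30a, Trim30b, Trim30c, Trim30d, Trim56 and Trim71. Between day 8 and day 23, 4 members were higher at day 8 and 1 lower, against 3.08% and 2.25% of all genes: Trim2, Trim8, Trim29 and Trim30c were higher and Trim66 lower. Trim8 alone held throughout, and the count of 4 became 2 without replicate 1, 3 or 9 and 1 without replicate 2.

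**Figure D4:**
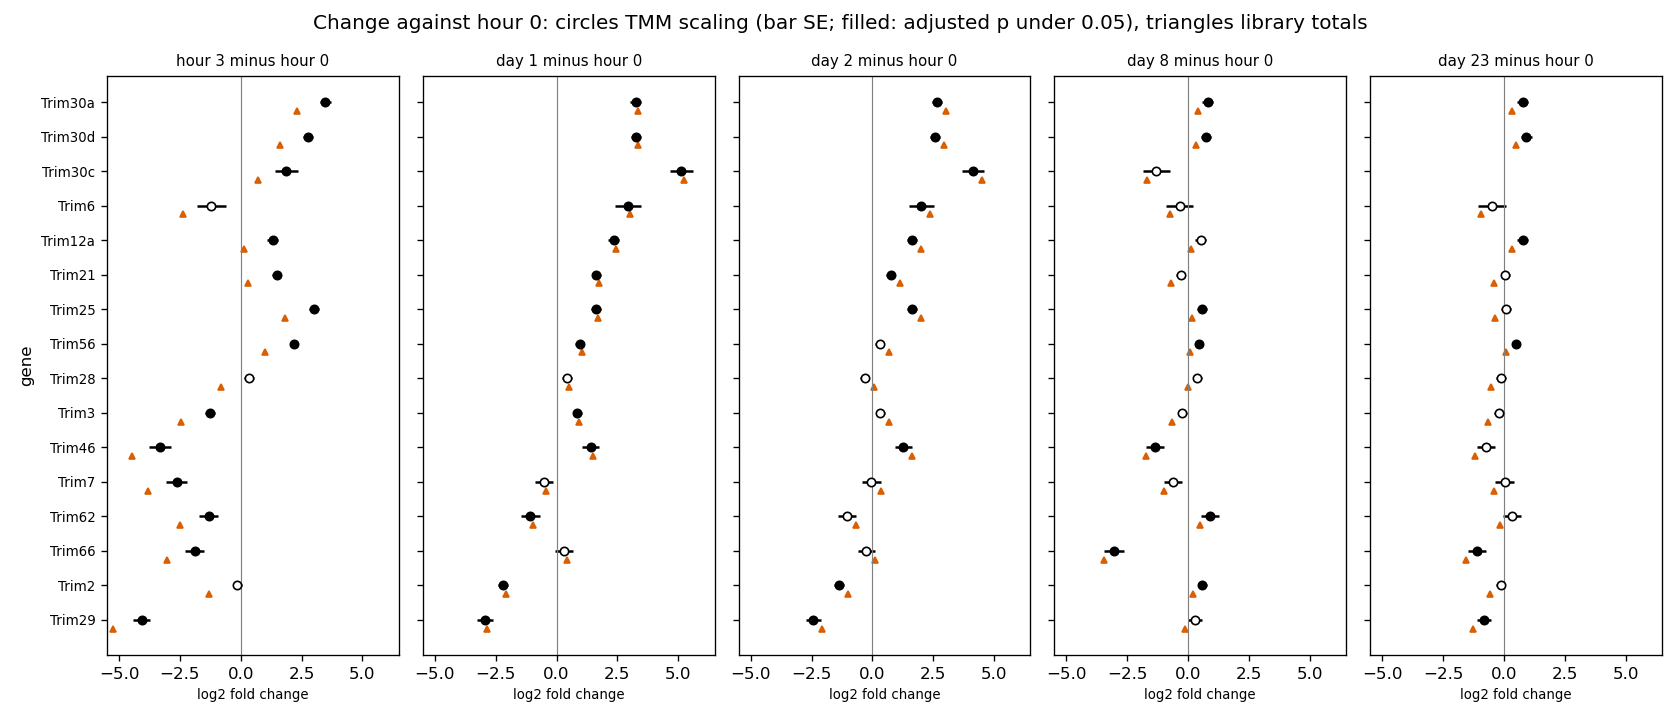
Log2 fold change of 16 members against hour 0 at each of the 5 later times, by TMM scaling (circles with SE, filled where the adjusted p is under 0.05) and by library totals (triangles). Triangles lie left of the circles at hour 3, day 8 and day 23, right of them at day 2 and close to them at day 1; Trim30c is left out at day 23, where it had 0 counts.

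The kinase and adaptor regulators of NF-kB and interferon signalling held 11 members, of which 2 rose and 8 fell at hour 3 (0 and 9 with library totals), and 1 rose and 3 fell at day 1. Among all genes 43.1% fell at hour 3 (70.8% with library totals) and 12.8% at day 1. Trim8, which modulates NF-kB and cytokine signalling, had the highest level per length of the family, 44.9 CPM per kb of exon at hour 0, in every group apart from hour 3, where Trim25 had 92.8 and Trim8 90.3. Trim8 counted 173, 170 and 156 CPM at hour 0, 298, 371 and 337 at hour 3, 347, 251 and 350 at day 1, and 126, 136 and 162 at day 2. By TMM hour 3 and day 1 lay above hour 0 without overlap. Its log2 fold change was 0.92 ± 0.166 at day 1 (adjusted p = 7.72e-05) under TMM and 1.01 under library totals, but 1.01 and -0.17 at hour 3. Trim27 likewise rose at hour 3 by TMM (1.02, adjusted p = 0.000498) and not by library totals (-0.16, 0.528).

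Trim29, a member known from basal epithelial cells that also restrains innate signalling (ENSMUSG00000032013, chromosome 9, 43310848 to 43336115), fell early and returned. It counted 28.7, 33.4 and 35.2 CPM at hour 0, 2.87, 1.85 and 1.03 at hour 3, 2.66, 6.35 and 3.59 at day 1, and 5.86, 5.01 and 7.09 at day 2. By day 8 it held 39.8, 42.5 and 36.1 CPM and at day 23 11.2, 24.6 and 19.2. The first 3 infected groups lay below hour 0 with no overlap. Day 8 lay above it by TMM and overlapped it by library totals (30.6 to 39.7 CPM against 34.8 to 41.2). Log2 fold changes were -4.08 ± 0.359 at hour 3 (adjusted p = 1.97e-10), -2.95 ± 0.32 at day 1 (2.1e-08), -2.43 ± 0.316 at day 2 (1.01e-06) and 0.28 ± 0.287 at day 8 (0.435). A fall at day 23 (-0.81, 0.0368) was lost without replicate 7, 9, 11 or 12 (0.147, 0.0705, 0.0769 and 0.0787). Krt5 and Krt14, keratins of basal epithelium, had group means of 50.1 and 107 CPM at hour 0, 6.29 and 27.0 at hour 3, 14.9 and 20.2 at day 1, 24.0 and 33.8 at day 2, and 89.0 and 134 at day 8. The 8 epithelial markers together summed to 388 to 621 CPM at hour 0, 830 to 1145 at hour 3, 231 to 284 at day 1 and 2597 to 3087 at day 8. Their part in the values of Trim29 was not tested.

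Trim62, a ligase linked to epithelial polarity and to the adaptor CARD9, counted 11.9, 12.6 and 16.0 CPM at hour 0, 3.52, 5.54 and 7.21 at hour 3, 7.41, 8.27 and 3.59 at day 1, and 8.71, 5.37 and 5.74 at day 2. It held 16.5, 30.1 and 29.5 CPM at day 8, all above hour 0 by TMM, and 8.38, 29.8 and 12.5 at day 23. Its fall at hour 3 was -1.32 ± 0.394 (adjusted p = 0.00704). The fall at day 1 (-1.08, 0.0405) was lost with library totals (0.0517) and without replicate 11, 12, 13 or 15 (0.0593, 0.12, 0.0594 and 0.199). The rise at day 8 (0.91, 0.0473) was lost with library totals (0.25) and without replicate 2, 3, 10 or 11 (0.228, 0.133, 0.111 and 0.106). Trim23, which is also a GTPase, fell at hour 3 (-1.19, adjusted p = 0.000608) and day 2 (-0.94, 0.0118). The day 2 call was lost with library totals (-0.56, 0.185), with DESeq2 size factors (0.0614) and without replicate 12 or 16 (0.0881 and 0.116). Trim39 fell at hour 3 (-0.49, 0.0303) and day 8 (-0.64, 0.00914). The first call was lost with no filter (0.236) and without replicate 4, 6, 10 or 11 (0.0757 to 0.0875), and the second with no filter (0.168) and without replicate 1 (0.0576). Trim45 fell at hour 3 (-3.27, 4.84e-05), day 8 (-1.26, 0.0458) and day 23 (-2.43, 0.00313). Its day 8 call was lost with no filter (0.161), without the day 2 libraries (0.0513) and without replicate 1, 2, 3, 10 or 11 (0.0997 to 0.13). The falls of Trim39 and Trim45 lie in the set with low receptor counts, which cannot be told apart from the time.

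The TIF1 group of chromatin readers with a bromodomain has 4 members, all described. Trim28, the corepressor that zinc finger proteins recruit to silence retroelements, counted 84.4, 78.3 and 84.2 CPM at hour 0, 105, 104 and 104 at hour 3, 129, 75.7 and 129 at day 1, and 56.5, 64.9 and 76.4 at day 2. It held 114, 99.4 and 107 CPM at day 8 and 102, 62.2 and 65.3 at day 23. No contrast with hour 0 was called in the TMM fit of all 18 libraries, from -0.32 ± 0.197 at day 2 (adjusted p = 0.356) to 0.44 ± 0.196 at day 1 (0.115). The values of hour 3 depended on the scaling, with 0.34 ± 0.196 by TMM (0.127) and -0.83 by library totals (0.00118). Without replicate 14, the low library of day 1, the day 1 value was 0.65 and called (0.0114). It was also called with no filter (0.63, 0.0218) and in a fit of hour 0, day 1 and day 2 alone (0.57, 0.0421). A rise at day 8 was called with no filter (0.59, 0.0202), and a fall at day 23 with library totals (-0.54, 0.0421).

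Trim24, a coregulator of nuclear receptors, rose by 1.30 ± 0.2 at day 1 (adjusted p = 8.69e-06), from 28.1 to 39.8 CPM at hour 0 to 68.5 to 95.6, and by 1.03 ± 0.2 at day 8 (0.000362), and both rises held in every alternative. It was back at 30.3, 45.0 and 33.4 CPM at day 2. Trim33, which acts on SMAD4 in TGF-beta signalling, held 32.7 to 47.0 CPM at hour 0, 40.5 to 41.2 at day 1 and 66.2 to 74.7 at day 8, where it rose (0.83 ± 0.171, 0.000723), though with library totals not past the threshold (0.42, 0.0606).

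Trim66, the testis-rich member of the group, counted 9.29, 7.82 and 8.93 CPM at hour 0, 1.43, 2.11 and 3.47 at hour 3, 10.6, 12.7 and 9.04 at day 1, and 5.56, 7.87 and 8.55 at day 2. It held 0.917, 1.06 and 1.16 CPM at day 8 and 3.92, 3.23 and 5.21 at day 23. The groups of hour 3, day 8 and day 23 all lay below hour 0, day 1 and day 2. Falls were -1.89 ± 0.392 at hour 3 (adjusted p = 0.00027), -3.04 ± 0.41 at day 8 (4.35e-06) and -1.10 ± 0.381 at day 23 (0.0301), the last lost without replicate 7, 8, 10 or 12 (0.0708, 0.128, 0.0672 and 0.0545). The groups with low Trim66 are the set with low receptor counts, and the 2 cannot be told apart. Within that set day 8 was below day 23 (-1.94 ± 0.419, 0.00512).

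Members with NHL repeats, known from neurons and development, moved apart. Trim2, which targets neurofilament light chain in neurons (ENSMUSG00000027993, chromosome 3, 84160439 to 84306877), counted 49.5, 63.3 and 83.5 CPM at hour 0, 56.7, 58.9 and 61.9 at hour 3, 13.9, 16.9 and 12.0 at day 1, and 27.8, 23.9 and 24.6 at day 2. Later it held 89.2, 110 and 95.9 CPM at day 8 and 53.3, 60.6 and 65.6 at day 23. By TMM day 1 and then day 2 were the lowest groups, with no overlap with any other, and day 8 the highest. By library totals hour 3, at 29.2 to 32.6 CPM, lay below day 2 (37.4 to 42.1), its fall against hour 0 was called (-1.32, adjusted p = 1.08e-06, against -0.15 and 0.497 by TMM), and day 8 overlapped hour 0. Log2 fold changes were -2.20 ± 0.196 at day 1 (adjusted p = 4.98e-10), -1.37 ± 0.191 at day 2 (3.2e-06) and 0.59 ± 0.184 at day 8 (0.0141), and from hour 3 to day 1 Trim2 fell by 2.05 (9.49e-10). The rise at day 8 was lost with library totals (0.19, 0.424) and without replicate 2 or 10 (0.176 and 0.0905). Glial and neural markers summed to 93.9 to 98.3 CPM at hour 0, 18.0 to 25.3 at day 1 and 145 to 208 at day 2, and their part was not tested.

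Trim3, a member also found in brain, counted 39.0, 31.7 and 36.0 CPM at hour 0, 15.6, 18.2 and 10.0 at hour 3, 61.1, 57.5 and 73.3 at day 1, and 46.9, 44.1 and 43.1 at day 2. Day 8 held 29.0, 29.3 and 31.9 CPM and day 23 29.8, 29.0 and 34.3. Hour 3 lay below and day 1 above all other groups. It fell at hour 3 (-1.28 ± 0.202, adjusted p = 6.75e-06) and rose at day 1 (0.85 ± 0.193, 0.00132). Trim32, a muscle and brain ligase, fell at hour 3 (-1.03, 0.000781) and day 2 (-0.79, 0.0181), the latter lost with library totals (-0.43, 0.283). Trim71, of stem cells, held 1.57 to 6.12 CPM at hour 0 and 6.57 to 11.8 at day 2, with 1 count in all at day 8 and 0 at day 23. Day 8 and day 23 lie in the set with low receptor counts. Its level at hour 0, 0.347 CPM per kb, was under the receptor genes' 95th percentile (0.437).

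Of the 4 microtubule-binding COS-box members, Trim46, which organises microtubules at the start of the axon (ENSMUSG00000042766, chromosome 3, 89234177 to 89246309), rose at day 1 and day 2. It counted 6.96, 5.32 and 7.78 CPM at hour 0, 0.652, 0.132 and 1.16 at hour 3, 15.5, 20.1 and 17.8 at day 1, and 19.7, 12.0 and 16.9 at day 2. At day 8 it held 3.08, 2.76 and 1.94 CPM and at day 23 3.39, 4.10 and 4.73. Day 1 and day 2 overlapped above hour 0, and hour 3, day 8 and day 23 lay below it. The groups below it are the set with low receptor counts, which cannot be told apart from the time in these falls. Log2 fold changes were -3.34 ± 0.452 at hour 3 (adjusted p = 5.96e-07), 1.41 ± 0.349 at day 1 (0.00316), 1.27 ± 0.351 at day 2 (0.0112) and -1.37 ± 0.368 at day 8 (0.0056). The day 2 call was lost without replicate 11 or 16 (0.0607 and 0.0904). Krtcap2 on the opposite strand covers 6.3% of its exon bases.

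Trim9, Trim67 and Trim36, the other members of that group, were low. Trim9 held 2.83 to 4.80 CPM at hour 0, 0 to 0.652 at hour 3 and 4.89 to 9.18 at day 2, and Trim67 had 58 counts at hour 0 and 0 at hour 3, which is at least 14.2-fold lower. Both fell at hour 3, day 8 and day 23, in the set with low receptor counts. Trim36 had no call.

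Muscle RING-finger members Trim54, Trim55 and Trim63, which turn over sarcomere proteins, had 31, 46 and 34 counts at hour 0 and 0 at hour 3, day 8 and day 23. That puts hour 3 at least 7.61-fold, 11.3-fold and 8.35-fold lower. Hour 3, day 8 and day 23 are the set with low receptor counts, which cannot be told apart from the time here. Skeletal muscle markers summed to 23.2 to 35.1 CPM at hour 0, 45.8 at day 2, 3.65 to 5.14 at hour 3, 4.50 to 6.67 at day 8 and 7.34 to 11.6 at day 23, with Acta1, Tnnc2, Myh2, Myh4 and Pvalb at 0 at hour 3. Trim72, a membrane repair protein of muscle, rose at hour 3 (1.83, adjusted p = 0.0418) and day 23 (2.33, 0.0236), where replicate 8 held 8.55 CPM and the others 0.357 and 1.66. Neither call held with library totals (0.435 and 0.06), that of day 23 was lost without replicate 8 (0.42, 0.73), and its F test over the 6 groups was not called (0.119). Gm15533 on the opposite strand covers 27.6% of its exon bases. The erythroid members Trim10 and Trim58 had group means of at most 2.30 CPM.

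**Figure D5:**
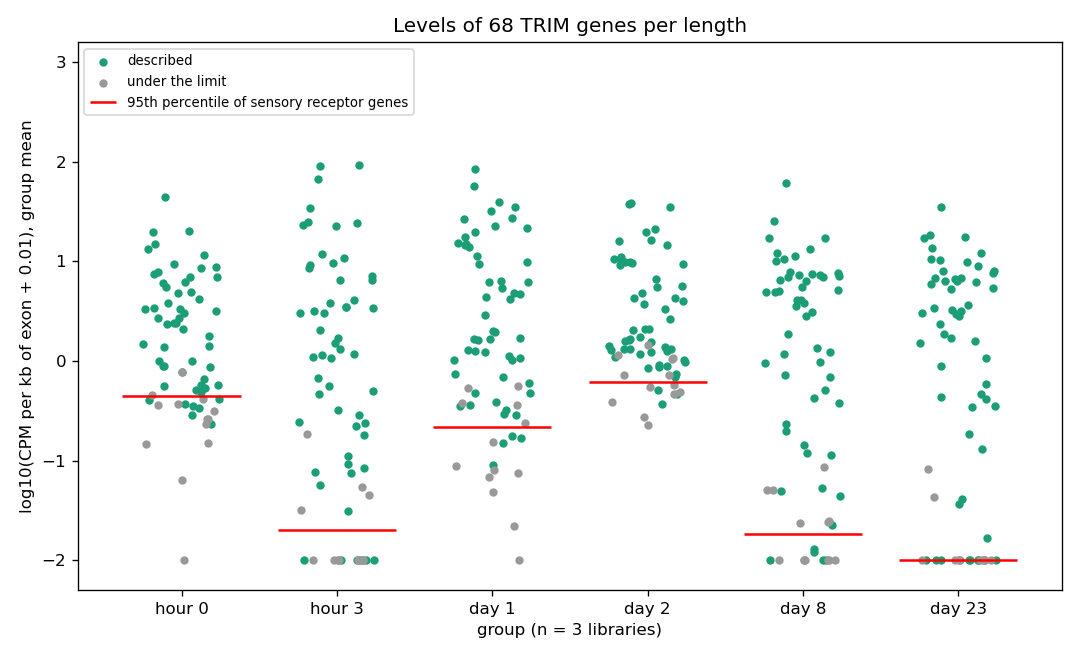
Group means of all 68 members as log10 of CPM per kb of exon plus 0.01, for described members (green) and those under the limit (grey), with the 95th percentile of 1458 sensory receptor genes as a red line in each group. Between 49 and 58 members lie above the line, which is higher at hour 0, day 1 and day 2 than in the other groups.

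Among the 12 remaining cytoplasmic and nuclear members, Trim11 and Trim47 rose at day 1. Trim11, a ligase linked to protein quality control, went from 21.4 to 43.8 CPM at hour 0 to 69.3 to 85.0 (1.29 ± 0.229, adjusted p = 7.05e-05). Trim47 went from 42.5 to 68.2 CPM at hour 0 to 101 to 118 at day 1 (1.00 ± 0.201, 0.000346) and fell at hour 3, to 22.0 to 35.5 (-0.88 ± 0.206, 0.000921), and at day 8 (-0.59, 0.0209), the last lost with no filter (0.199) and without replicate 3 or 11 (0.0745 and 0.15). It shares 225 exon bases with Trim65, 8.2% of its own. Trim37, a centrosomal ligase, rose at day 8 (0.87 ± 0.22, 0.00371), though not with library totals (0.47, 0.096).

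Trim7, which binds glycogenin, counted 9.67, 8.95 and 14.6 CPM at hour 0, 1.56, 0.923 and 2.83 at hour 3, 8.38, 4.70 and 10.1 at day 1, and 8.41, 13.8 and 10.0 at day 2. It held 8.00, 6.25 and 7.36 CPM at day 8 and 6.06, 11.0 and 17.3 at day 23. Hour 3 alone stood apart, below every other library, with a log2 fold change against hour 0 of -2.63 ± 0.434 (adjusted p = 1.34e-05) and against day 23 of -2.67 ± 0.44 (1.56e-05).

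Genes that work with the family were read from lists of interferon-stimulated genes, sensing partners, ubiquitin enzymes, chromatin partners and relatives with other symbols. All 20 interferon-stimulated reference genes rose at day 1 and at day 2, and 18 rose and none fell at hour 3 (16 and 3 with library totals). Later 10 rose at day 8, and at day 23, 7 rose and 1 fell (4 and 5 with library totals). At day 1 Ifi44 went from 7.83 to 220 CPM and Irf7, the factor that amplifies interferon induction, from 45.4 to 967. For each list the share of all genes stood at 16.9% higher and 43.1% lower at hour 3 (5.41% and 70.8% with library totals) and 9.67% and 12.8% at day 1. It was 5.12% and 9.63% at day 2 and 11.2% and 32.7% at day 8. At day 23 it was 8.51% and 25.4% (2.55% and 39.7% with library totals). Of 21 sensing partners 13 rose and 6 fell at hour 3, and 11 rose and 1 fell at day 1. Ddx58, which encodes RIG-I, went from 64.7 CPM at hour 0 to 309 at hour 3 and 228 at day 1, and Ifih1, which encodes MDA5, from 54.4 to 721 and 190. With library totals 8 sensing partners rose and 8 fell at hour 3, and 11 rose and 1 fell at day 1.

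Of 21 genes for ubiquitin, its activating enzymes and its conjugating enzymes, 13 rose and 2 fell at hour 3, but 3 and 8 with library totals. At day 1, 5 rose and none fell, led by Ube2l6, the conjugating enzyme of ISG15, from 20.8 to 119 CPM (2.51 ± 0.242, adjusted p = 2.24e-09). Among 17 chromatin partners of the TIF1 group 4 rose and 8 fell at hour 3 (1 and 16 with library totals), falls near the share of all genes by TMM, and 3 rose and 3 fell at day 1. Skil, a brake on SMAD signalling, went from 82.9 to 905 CPM at hour 3 (3.45 ± 0.219, 2.42e-13), and Smad3 from 237 to 44.3 at day 1 (-2.42 ± 0.21, 2.87e-10). Of 10 relatives under other symbols 1 rose and 1 fell at day 1: Pml, the organiser of nuclear bodies, from 52.1 to 206 CPM (1.98 ± 0.171, 2.67e-10) and Mid2, a microtubule ligase, from 24.2 to 9.40 (-1.36 ± 0.214, 1.2e-05).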

How the data were processed

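RNA-seq of 18 libraries was used, in 6 groups of 3. The authors deposited a raw count for each Ensembl gene identifier in each library. Per the submitters' processing notes the authors used FastQC, STAR, Subread and DESeq2 on mm10. Strand setting and the treatment of multi-mapping reads are not given in the sources used here, which leaves antisense overlaps and near-identical copies uncertain.

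Symbols, exon lengths and positions came from GENCODE M21 (55141 of 55401 identifiers matched, the other 260 holding 0.0241% of counts). A single edgeR 4.0.16 fit (R 4.3.3) held the 18 libraries: filterByExpr with a minimum count of 10 and total of 15, TMM scaling, quasi-likelihood tests, Benjamini-Hochberg adjustment over 27525 genes, threshold 0.05. An SE is the log2 fold change divided by the square root of F. In 200 genes changed in simulated day 1 data, 31% of log2 changes of 1 and 74% of 2 were recovered, with 4.55% false among calls. CPM are TMM-scaled unless library totals are named. Depth of 4398234 to 15234431 counts limits low members, and intervals and floors cover counting error only.

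Every library value is printed for the 14 described members with the largest spread of group means (with a group mean of 10 CPM or more) and for Trim21, Trim25, Trim28, Trim30a and Trim56, which makes 16. Trim8 was added after its values were seen, and so were the alternatives for described members beyond these 16. Other described members appear by role, with values where a result turns on them, and pathway genes by smallest adjusted p, up to 4 a list. Members, lists and tests were chosen with earlier results of these data known. Steps between all pairs of times came from the same fit and were added after seeing the data, as was a fit without day 2. Other alternatives were DESeq2 size factors, library totals, no filter (47602 genes), 5 CPM in 3 libraries (12808 genes), DESeq2 1.42.0, limma-voom (limma 3.58.1), fits of fewer groups, and leaving out each replicate. Protein sequences were not used here.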

Additional observations from a re-analysis of the deposited data

Results flagged for a closer look

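Apart from Trim30c, which was higher at day 1 and had 0 counts at day 23, so that its fitted difference is no bound, 5 described members were called higher than hour 0 at one time and lower at another, with no overlap between the libraries of hour 0 and of either time. These calls and gaps are by TMM, and the share of all genes that did the same is not given here. In each of the 5 the difference between those times was tested in the same edgeR fit. Trim46 stood 4.75 ± 0.451 higher on the log2 scale at day 1 than at hour 3 (adjusted p = 8.5e-10), and Trim3 2.13 ± 0.204 higher at day 1 than at hour 3 (1.01e-09). Trim47 was 1.88 ± 0.208 higher at day 1 than at hour 3 (1.69e-08), from 1.00 above hour 0 to -0.88. Trim2 was 2.78 ± 0.199 higher at day 8 than at day 1 (6.06e-12), and Trim62 2.22 ± 0.396 higher at day 8 than at hour 3 (4.41e-05). For Trim2 and Trim62 the rise over hour 0 at day 8 was less firm. It was lost with library totals (adjusted p = 0.424 and 0.25), where day 8 overlapped hour 0. Leaving out replicate 2 (0.176 and 0.228) or replicate 10 (0.0905 and 0.111) also ended both calls. Day 1 and hour 3, and day 8 and day 1, lie in the sets that differ in sensory receptor counts, so the set cannot be told apart from the time in 4 of these 5 differences. For Trim62 both times lie in the set with low receptor counts.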

How the results depend on the processing

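Scaling to library totals alone had the widest effect. It left 4 rises and 49 falls at hour 3 against hour 0, 3 falls at day 1, 2 falls at day 2, 1 rise at day 8, 0 rises and 31 falls at day 23, and 6 falls from day 1 to day 2. Some values called by neither scaling changed sign under it, and so did 7 that were called by at least 1: at hour 3 against hour 0 Trim28 (-0.83), Trim26 (-0.06), Trim27 (-0.16), Trim34a (-1.11), Trim44 (-0.37) and Trim8 (-0.17), and at hour 3 against day 23 Trim26 (-0.13). By construction the filter of 5 CPM in 3 libraries tested fewer members, and it gave 20 falls at hour 3, 4 rises and 8 falls at day 8, 3 rises and 8 falls at day 23, 2 rises and 10 falls from day 1 to day 2, and 40 members changed over the 6 groups. No filter gave 3 falls at day 1, 19 rises at day 8, 2 rises from day 1 to day 2 and 7 members higher at day 8 than at day 23. DESeq2 size factors gave 2 falls at day 2, 7 rises at day 8 and 7 falls from day 1 to day 2, and DESeq2 itself 7 rises at day 8 and 8 falls from day 1 to day 2. Limma-voom gave 8 falls at day 1, 6 rises at day 23 and 18 rises from day 1 to day 2. Fitting only the groups compared gave 2 falls at day 1, 0 rises and 5 falls at day 23, and 2 members higher and 0 lower at day 8 than at day 23. Without the day 2 libraries, a setting chosen after seeing the data, 5 rose at day 8. The cause of these changes was not tested apart from the filters.

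Leaving out 1 library at a time gave 2 to 5 falls at day 1, 2 to 5 falls at day 2, 6 to 10 rises at day 8, 5 to 10 rises and 11 to 18 falls at day 23, 1 to 9 rises and 8 to 14 falls from day 1 to day 2, and 1 to 6 members higher at day 8 than at day 23. The rises at day 1 ran from 17 to 20. Other counts stayed within 1.5 times of those reported under these alternatives. No paired analysis was possible because the groups share no replicate number. Depth limits values under 2 CPM, which can rest on few counts. Trim30c, for example, had 7 counts at 0.677 CPM in replicate 10 of hour 0, and 1 count at 0.0775 CPM in replicate 3 of day 8.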
